A study of Homo sapiens with 78 samples.

Results

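The mRNA response of A549 cells to 6 h of IL-1β-plus-budesonide was compared with cells that were not stimulated (NS). All libraries of both groups were taken by their labels, 4 of IL-1β-plus-budesonide and 3 of NS (numbers 1, 2 and 4), or 7 of 78 libraries in the series and of 15 at 6 h. A549 is an epithelial cell line from a human lung carcinoma, labelled as wild type and as pulmonary type II cells. In the cotreatment group the cytokine interleukin-1β (IL-1β) was given at 1 ng/ml and the inhaled glucocorticoid budesonide at 300 nM. The NS group received neither agent. Cells of both groups were grown to confluence with serum, kept overnight without serum and then changed to fresh serum-free medium, so the comparison is made in serum-starved, confluent cells of 1 tumor line. Of 19652 genes listed, 13327 that reached 1 TPM (a share of all transcripts, corrected for transcript length) in at least 3 libraries were tested.

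IL-1β binds its receptor on epithelial cells and, through the adaptor MYD88, the IRAK kinases and TRAF6, releases the transcription factor nuclear factor κB (NF-κB) from its IκB inhibitors. NF-κB then drives chemokines, adhesion molecules and acute phase proteins, and at the same time the genes that shut the pathway off, such as NFKBIA and TNFAIP3. Budesonide binds the glucocorticoid receptor (GR), which enters the nucleus, activates genes such as FKBP5 and TSC22D3 and restrains many inflammatory genes, the property for which inhaled glucocorticoids are used in asthma.

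The labelled cell type was checked against marker genes. The keratins of simple epithelium were abundant in all 7 libraries, with KRT8 at 2722 to 3956 TPM, KRT18 at 1685 to 2499 TPM and KRT7 at 2416 to 3481 TPM. Of 12 epithelial markers, 6 were at 10 TPM or more in all 7 libraries and 2 were under 1 TPM in all, among them GRHL2 at or near 0, and of the 11 tested 1 rose and 1 fell. KRT19 was at 79.2 to 106 TPM in NS and at 35.1 to 59.2 TPM with cotreatment. Of 11 alveolar type II markers, 6 stayed under 1 TPM in every library (SFTPA1, SFTPA2, SFTPB, SFTPC, NKX2-1 and SLC34A2), 4 of them surfactant proteins. Of the other 5, ETV5 was at 22.1 to 25.0 TPM in NS and 22.5 to 35.6 TPM with cotreatment, ABCA3, a lipid transporter, at 9.16 to 10.4 and 14.3 to 15.7 TPM, and SFTPD at 0.380 to 0.845 and 0.453 to 3.97 TPM. Among the 6 of these markers that were tested 1 rose, LAMP3, at the low levels of 0.0621 to 0.121 TPM in NS and 0.807 to 1.27 TPM with cotreatment. The summed level of 8 immune cell markers was 12.2 to 13.9 TPM in NS and 14.7 to 19.0 TPM with cotreatment, with CD3E at 0 and 5 markers under 1 TPM throughout. The 6 endothelial markers were all under 1 TPM, and 8 fibroblast markers summed to 23.8 to 26.0 TPM in NS and 10.8 to 14.9 TPM with cotreatment. ITGAM, the immune marker that rose, was at 8.53, 4.12, 3.68 and 4.00 TPM against 1.13, 1.92 and 1.16 TPM. The part of other cell types in the results was not tested. In bulk RNA, fewer cells of a kind and less RNA per cell cannot be told apart. Transcripts of the mitochondrial genome took 12.7% to 15.0% of TPM and 11832 to 12321 genes reached 1 TPM in each of the 15 libraries at 6 h, and number 4 libraries lay farthest from the rest of their groups. The number of reads behind each value is not known from TPM. The labels speak of independent experiments without tying a library to one. P-values therefore measure the spread between libraries within groups, pooled over all groups of the series and not from the compared groups alone.

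With cotreatment 637 genes (4.78% of those tested) rose and 311 (2.33%) fell. Calls needed a Benjamini-Hochberg adjusted p of 0.05 or less in limma and a change of 1 or more in either direction on the scale of log2(TPM + 0.5), which understates the change of genes with low levels. The changes were larger upward: the median was 1.55 on the log2 scale among genes that rose and -1.21 among genes that fell, 182 genes rose by at least 2 and 33 by at least 4, and 18 fell by at least 2. No overlap between the 4 cotreated and the 3 NS libraries was seen in 630 of the called genes that rose and 297 that fell. The calls rest on the same libraries, so this count is a description. Genes without a call, such as BIRC2, could also be without overlap. The share without overlap among all genes tested was not counted. Lack of overlap is therefore given below as a description of each gene and not as a measure of strength. Without the minimum on fold change, 1898 genes were higher and 2053 lower at an adjusted p of at most 0.05. The median log2 fold change of all genes tested was -0.04 and the median SE was 0.15. With a pseudocount of 0.1 in place of 0.5, 488 genes fell, and with 1, 193. In what follows a value in the form 9.04 ± 0.32 is a log2 fold change and its SE for 4 cotreated against 3 NS libraries, unless another comparison is named. The SE rests on the spread pooled over all groups of the series. Rose or fell means called.

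In terms of transcript amount, the genes that rose held 8984 to 10050.1 TPM of each NS library and 34666 to 37807 TPM of each cotreated library. The genes that fell held 5914 to 6434 TPM in NS and 2149 to 2419 TPM with cotreatment. Of the genes that rose, 207 averaged under 1 TPM in NS and 357 averaged at least 10 TPM with cotreatment. Of those that fell, 121 averaged at least 10 TPM in NS. The genes had been called for these differences, so the sums are a description.

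**Figure D1:**
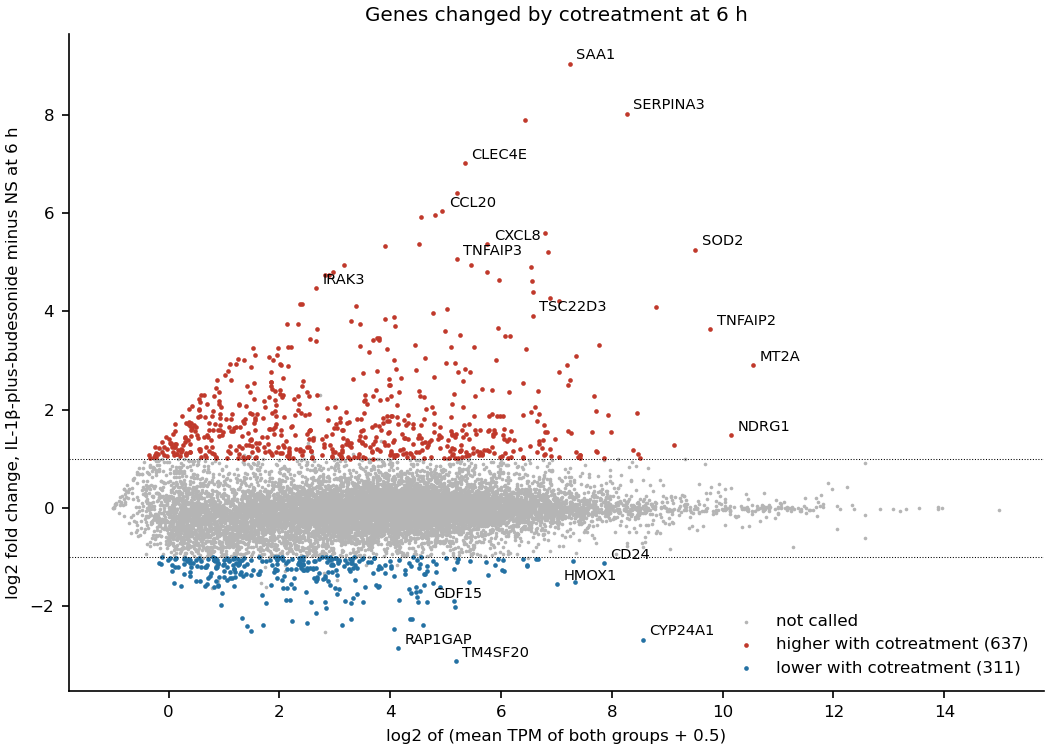
Log2 fold change of IL-1β-plus-budesonide minus NS at 6 h (vertical axis) against log2 of the mean TPM of both groups plus 0.5 (horizontal axis) for 13327 genes, each point 1 gene. The 637 genes called higher (red) reach 9.04 for SAA1, and the 311 called lower (blue) reach -3.12 for TM4SF20. Dotted lines mark a log2 fold change of 1 in either direction.

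The highest changes belonged to secreted acute phase proteins, which the liver releases in inflammation. SAA1, serum amyloid A1, was at 272, 313, 258 and 370.1 TPM in cotreated libraries 1 to 4 and at 0, 0 and 0.238 TPM in NS libraries 1, 2 and 4, in that order as in all lists of values that follow, a log2 fold change of 9.04 ± 0.32 (SE, adjusted p = 6.3e-34). SERPINA3, the protease inhibitor α1-antichymotrypsin, was at 492, 587, 697 and 678 TPM against 1.19, 2.51 and 2.00 TPM (8.03 ± 0.24, adjusted p = 6.6e-38). All 4 cotreated libraries stood far above all NS libraries for both genes, and the mean of SERPINA3 was 323-fold that of NS. SAA2, the close relative of SAA1, was at 159.9, 172, 161 and 197 TPM against 0.0564, 0.550 and 0.154 TPM (7.89 ± 0.32). SAA1 and SAA2 share 40.3% and 24.2% of their 31-base words with other genes, so the division of reads between them is uncertain, and SERPINA3 shares 30.3%.

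Genes of innate recognition, barrier defence and mitochondria were also among the highest changes. CLEC4E, a C-type lectin receptor for microbial glycolipids, was at 61.9, 61.2, 70.0 and 129 TPM with cotreatment and at 0.130, 0 and 0.161 TPM in NS (7.02 ± 0.33). PI3, the elastase inhibitor elafin, was at 46.0, 46.9, 50.0 and 148 TPM against 0.108, 0.106 and 0.651 TPM (6.41 ± 0.47). For both, cotreated library 4 was far above the other three, which lay close together, and no cotreated library overlapped with NS. C15orf48, a mitochondrial protein induced in inflammation, was at 209, 239, 240.1 and 203 TPM against 4.78, 5.22 and 6.65 TPM (5.21 ± 0.29), and SOD2, mitochondrial superoxide dismutase, at 1268, 1379, 1444 and 1581 TPM against 35.7, 34.3 and 39.5 TPM (5.26 ± 0.22). The 4 cotreated libraries of SOD2 differed from each other by less than their distance to NS, and their mean was 38.8-fold higher.

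The rest of the 20 highest changes without overlap held chemokines and cytokines (CCL20, CCL5, CXCL1, CXCL8, CXCL2, EBI3 and IL32), the adhesion molecule ICAM1, TNFAIP3, which restrains NF-κB, the ubiquitin-like modifier UBD (5.33 ± 0.23), the ammonium transporter RHCG (4.94 ± 0.26), the Cdc42 effector CDC42EP5 (4.94 ± 0.72) and the membrane protein TMEM265 (4.80 ± 0.39). CDC42EP5 was among the least even of them, at 10.3, 21.2, 22.2 and 14.1 TPM against 0, 0.142 and 0 TPM. UBD shares 80.1% and TMEM265 98.3% of its 31-base words with other genes, and their values are uncertain for that reason.

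**Figure D2:**
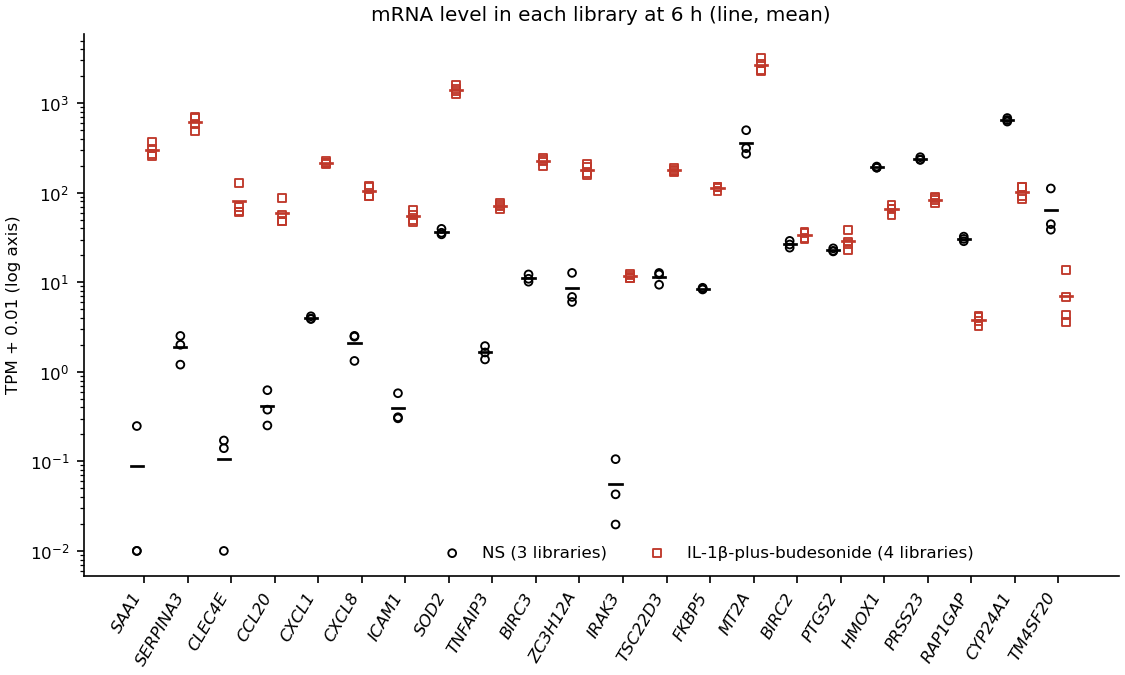
TPM plus 0.01 (log axis) of 22 genes in each library at 6 h, NS (black circles, 3 libraries) and IL-1β-plus-budesonide (red squares, 4 libraries), with a line at each mean. From SAA1 to MT2A every cotreated library lies above every NS library, PTGS2 overlaps, and from HMOX1 to TM4SF20 every cotreated library lies below NS.

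Promoter sequences are shown for 4 of the genes that rose by most or restrain NF-κB, and for the GR target TSC22D3, because the treatments act through DNA-binding factors. These genes were picked by hand, and each holds a match to the letters marked. They are the 300 bases from 250 before to 50 after the RefSeq start on GRCh38.p14, read 5′ to 3′ along the gene. Capitals mark matches on either strand to GGNNTTTCC, letters found in many NF-κB sites, and in TSC22D3 to ACANNNTGT, the paired half-sites of GR. SERPINA3 lies at chr14:94612141-94612440 (+), CCL20 at chr2:227813592-227813891 (+), CXCL1 at chr4:73869143-73869442 (+), TNFAIP3 at chr6:137867009-137867308 (+) and TSC22D3 at chrX:107775939-107776238 (-).
SERPINA3: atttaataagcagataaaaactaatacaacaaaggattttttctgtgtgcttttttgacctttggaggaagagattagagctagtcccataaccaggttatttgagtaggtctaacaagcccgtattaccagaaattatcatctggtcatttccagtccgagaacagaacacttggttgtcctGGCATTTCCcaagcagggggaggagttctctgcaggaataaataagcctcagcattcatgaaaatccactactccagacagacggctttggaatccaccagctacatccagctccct
CCL20: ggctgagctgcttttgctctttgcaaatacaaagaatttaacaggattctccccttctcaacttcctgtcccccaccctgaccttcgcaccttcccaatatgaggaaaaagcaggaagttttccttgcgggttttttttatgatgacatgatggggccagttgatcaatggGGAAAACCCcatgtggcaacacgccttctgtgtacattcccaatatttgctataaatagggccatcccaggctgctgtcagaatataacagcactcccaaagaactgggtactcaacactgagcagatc
CXCL1: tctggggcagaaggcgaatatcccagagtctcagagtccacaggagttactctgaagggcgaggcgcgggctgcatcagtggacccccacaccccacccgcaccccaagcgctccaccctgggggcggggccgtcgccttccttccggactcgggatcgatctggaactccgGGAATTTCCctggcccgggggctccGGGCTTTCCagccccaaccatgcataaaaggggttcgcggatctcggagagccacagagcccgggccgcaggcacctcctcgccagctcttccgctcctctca
TNFAIP3: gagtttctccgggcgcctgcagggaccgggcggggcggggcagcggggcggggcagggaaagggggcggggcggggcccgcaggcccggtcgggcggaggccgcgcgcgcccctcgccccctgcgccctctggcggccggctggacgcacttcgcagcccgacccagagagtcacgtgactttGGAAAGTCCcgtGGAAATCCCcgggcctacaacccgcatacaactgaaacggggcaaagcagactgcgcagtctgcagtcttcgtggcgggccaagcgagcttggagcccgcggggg
TSC22D3: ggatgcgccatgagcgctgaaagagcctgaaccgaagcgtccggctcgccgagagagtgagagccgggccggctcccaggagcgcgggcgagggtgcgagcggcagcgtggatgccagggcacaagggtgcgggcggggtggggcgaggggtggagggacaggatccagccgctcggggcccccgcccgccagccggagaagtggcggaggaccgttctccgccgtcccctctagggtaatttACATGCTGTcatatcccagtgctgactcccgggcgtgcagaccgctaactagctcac
The matches began 67 bases before the start in SERPINA3, 79 in CCL20, 78 and 53 in CXCL1, 67 and 55 in TNFAIP3 and 7 in TSC22D3. A promoter of this kind was at hand for 10576 of the 13327 genes tested, and GGNNTTTCC was found in 6.86% of them, in 62 of 463 promoters of genes that rose (13.4%) and in 11 of 223 of genes that fell (4.93%). Of the 20 highest genes, 12 had a promoter and 10 of these held the letters (83.3%), while CLEC4E and SOD2 did not. Over all 27305 promoters the share was 6.26%. ACANNNTGT was found in 2.67% of promoters of tested genes, in 4.54% of those of genes that rose and in 4.04% of those of genes that fell. Among GR targets that rose it was found in 1 of 19 promoters, that of TSC22D3, so the sequence shown is not typical of them. Over all promoters its share was 5.45%, above its share among tested genes, genes that rose and genes that fell. TGANTCA, the AP-1 letters, stood in 4.70% of tested, 8.86% of higher and 8.52% of lower genes' promoters, and in 7.76% of all promoters. TTTCNNTTTC, the interferon response letters, stood in 2.88%, 7.78% and 1.35%, and in 3.65% of all promoters. A match is a description of these letters in this window and not a bound site.

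Chemokines that attract neutrophils rose as a family. All 6 CXC chemokines of this kind rose (median 4.44 on the log2 scale, against -0.04 over all genes tested). CXCL8 was at 90.9, 92.8, 115 and 120.4 TPM with cotreatment and at 1.31, 2.46 and 2.51 TPM in NS (5.37 ± 0.24, adjusted p = 1.1e-28), and CXCL1 at 208, 213, 216 and 228 TPM against 3.92, 4.16 and 3.88 TPM (5.59 ± 0.18). CXCL5 had the highest level among them, at 786, 823, 899 and 836 TPM against 45.8, 43.9 and 57.5 TPM (4.08 ± 0.17). CXCL2 (4.80 ± 0.19), CXCL3 (3.31 ± 0.19) and CXCL6 (3.26 ± 0.24) rose as well, with no overlap in any of the 6. Shared 31-base words made up 13.7% of CXCL1, 23.5% of CXCL2 and 9.23% of CXCL3.

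Of 15 other chemokines, 10 passed the filter on low values and 7 rose (median 1.23). CCL20, which draws dendritic and T cells through CCR6, was at 48.6, 47.7, 57.0 and 87.2 TPM against 0.368, 0.242 and 0.614 TPM (6.04 ± 0.36). CCL5, a T cell and monocyte attractant, was at 47.4, 43.9, 26.2 and 66.5 TPM against 0.289, 0.349 and 0.0860 TPM (5.92 ± 0.31). CCL2, the monocyte attractant, was at 145, 137, 113 and 128 TPM against 9.74, 11.1 and 12.8 TPM (3.49 ± 0.17). CCL5 varied most among the cotreated libraries, and none of these genes overlapped between groups. CXCL10, an interferon-linked attractant of T cells, was listed at 0 in all NS libraries and at 1.95, 1.74, 2.92 and 5.53 TPM with cotreatment. CCL26, the eotaxin of eosinophils, did not reach the minimum change (-0.98 ± 0.38).

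Cytokines were less uniform. Of 21 listed, 15 passed the filter, 7 rose and IL11 fell (median 0.74). IL32, a proinflammatory cytokine, was at 156, 167, 189 and 202 TPM against 4.14, 4.26 and 8.96 TPM (4.91 ± 0.27), and EBI3, a subunit of heterodimeric cytokines, at 49.8, 41.0, 44.1 and 41.4 TPM against 0.451, 0.647 and 0.659 TPM (5.36 ± 0.26). CSF3, the granulocyte growth factor, was listed at 0 in NS and at 12.2, 13.3, 18.0 and 9.14 TPM with cotreatment. CSF1, its macrophage counterpart, rose by 1.87 ± 0.32, and IL7 (1.49 ± 0.25) and IL15 (1.19 ± 0.13), growth factors of lymphocytes, rose as well. IL6 was listed at 0 in NS and reached 0.410, 0.166, 0.216 and 0.615 TPM, and IL1B and IL1A had log2 fold changes of 0.73 ± 0.24 and 0.70 ± 0.18, under the minimum for a call. IL11, a cytokine of the IL-6 family, was at 1.20, 1.03, 1.09 and 0.914 TPM with cotreatment and at 5.28, 6.92 and 9.91 TPM in NS (-2.30 ± 0.23).

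Regulators of NF-κB rose in part. Of 6 IκB family members, 4 rose (median 1.20). NFKBIA, which holds NF-κB in the cytoplasm, was at 288, 286, 308 and 281 TPM against 40.4, 30.4 and 31.5 TPM (3.08 ± 0.12, adjusted p = 2.0e-32). NFKBIZ rose by 2.30 ± 0.25 and NFKBIE by 1.29 ± 0.20, while BCL3 (0.30 ± 0.20) and NFKBID (0.41 ± 0.28) overlapped between groups. TNFAIP3, the ubiquitin-editing enzyme A20, was at 65.2, 70.2, 77.2 and 72.6 TPM against 1.37, 1.93 and 1.64 TPM (5.07 ± 0.25), with all cotreated libraries far above NS. Of the 8 genes of A20 and ubiquitin editing, TNFAIP3, its partner TNIP1 (3.31 ± 0.10) and the deubiquitinase CYLD (1.86 ± 0.17) rose, and TNIP2 (0.90 ± 0.11) and TNIP3 (0.85 ± 0.23) lay just under the minimum.

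Of the 5 NF-κB subunits, 3 rose. RELB rose by 2.94 ± 0.16 to 52.8 to 61.8 TPM, NFKB2 by 2.41 ± 0.16 and NFKB1 by 1.12 ± 0.17. RELA (0.17 ± 0.18) and REL (0.13 ± 0.26) overlapped between groups. Among 14 tested genes of IL-1 receptor signaling, only the kinase IRAK2 (2.64 ± 0.11) and the inhibitory pseudokinase IRAK3 rose, the median was 0.20, and the receptor IL1R1 itself had a log2 fold change of -0.40 ± 0.25. IRAK3 was at 11.1, 12.5, 11.1 and 11.9 TPM with cotreatment and at 0.0959, 0.00973 and 0.0328 TPM in NS (4.48 ± 0.19, adjusted p = 6.3e-30), so an mRNA near 0 in all NS libraries was at a nearly even level in all cotreated ones.

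Proteins that destabilize inflammatory mRNAs rose in 3 of 5 cases (median 1.86). ZC3H12A, the endonuclease regnase-1, was at 165, 158, 193 and 209.7 TPM against 6.85, 6.02 and 12.7 TPM (4.40 ± 0.20). ZFP36, tristetraprolin, was at 52.2, 44.4, 54.5 and 59.1 TPM against 12.6, 10.4 and 21.2 TPM (1.85 ± 0.24). Neither overlapped with NS, and the relatives ZFP36L1 (0.79 ± 0.13) and ZFP36L2 (0.37 ± 0.13) did not reach the minimum. Of 10 members of the TRAF and inhibitor of apoptosis families, 3 rose (median 0.48). BIRC3, the inhibitor of apoptosis cIAP2, was at 224, 234, 198 and 244 TPM against 10.9, 12.2 and 10.1 TPM (4.28 ± 0.18, adjusted p = 1.1e-29), 20.2-fold higher in the mean. BIRC2, the neighboring gene of cIAP1, was at 37.0, 35.5, 30.2 and 31.1 TPM against 26.4, 29.0 and 24.3 TPM (0.33 ± 0.14, adjusted p = 0.072). Its groups did not overlap, but the difference did not pass the test.

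Receptors that sense microbes and cytokines rose in part. Of 8 tested pattern recognition genes, CLEC4E, TLR2, TLR3 and NOD2 rose (median 0.91). TLR2, the receptor for bacterial lipopeptides, was at 2.06, 1.88, 2.35 and 2.68 TPM against 0.161, 0.318 and 0.592 TPM (1.70 ± 0.19), and TLR3, the receptor for double-stranded RNA, rose by 1.64 ± 0.27. The cotreated libraries of TLR2 lay close together and above all of NS. Of 15 TNF receptors, TNFRSF9 (3.00 ± 0.21), CD40 (2.22 ± 0.12) and TNFRSF1B (1.74 ± 0.13) rose, and the median of the family was -0.11. Among 8 tested TNF ligands, LTB (3.40 ± 0.27) and TNFSF14 (1.99 ± 0.20) rose, and TNFSF9 (-1.27 ± 0.11) and TNFSF15 (-1.98 ± 0.19) fell.

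Among 15 tested adhesion molecules and integrins, 4 rose (median 0.65). ICAM1, to which leukocyte integrins bind, was at 49.9, 64.0, 56.5 and 47.6 TPM against 0.293, 0.567 and 0.301 TPM (5.96 ± 0.28). The integrin subunits ITGA2 (1.59 ± 0.25), ITGA5 (1.48 ± 0.20) and ITGB8 (1.29 ± 0.20) rose less, and VCAM1, listed at 0 in NS, was at 0.0891 to 0.256 TPM with cotreatment. Genes of prostaglandin synthesis were mostly not called: of 9 tested, the synthase PTGES (1.25 ± 0.19) and the receptor PTGER4 (2.40 ± 0.24) rose. PTGS2, the inducible cyclooxygenase, was at 23.0, 26.9, 38.7 and 28.6 TPM with cotreatment and at 22.4, 22.1 and 23.9 TPM in NS (0.33 ± 0.33, adjusted p = 0.52), with the lowest cotreated library inside the range of NS. The matrix proteases MMP1 (0.14 ± 0.17) and MMP7 (0.92 ± 0.19) and the plasminogen activator PLAU (0.03 ± 0.30) were not called either, and of 13 tested genes in that list 2 rose, among them the plasminogen activator PLAT (2.22 ± 0.20).

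Of 14 tested acute phase genes, 8 rose (median 1.61). Besides SAA1, SAA2 and SERPINA3 these included LCN2, the iron-binding lipocalin, at 196, 191, 214 and 124 TPM against 7.59, 7.56 and 5.40 TPM (4.61 ± 0.29), and ORM1, α1-acid glycoprotein, at 4.67, 9.23, 13.1 and 11.2 TPM against 0, 0 and 0.0954 TPM (4.16 ± 0.28). SERPINA1, α1-antitrypsin, rose by 2.08 ± 0.43, and its cotreated library 4 stood at 7.16 TPM with the other three at 2.25 to 2.94 TPM. SAA4 was listed at 0 in NS and was at 3.68, 3.47, 3.33 and 2.81 TPM, but it shares 74.8% of its 31-base words with other genes and ORM1 shares 51.9%.

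Complement rose in 5 of 14 genes (median 0.59). C3, the central component, was at 225, 253, 302 and 224 TPM against 14.4, 11.1 and 13.6 TPM (4.21 ± 0.33), and CFB, factor B of the alternative pathway, at 108, 99.9, 137 and 132 TPM against 4.48, 3.07 and 5.65 TPM (4.63 ± 0.21). CFB shares 38.8% of its 31-base words with other genes. C1R (1.28 ± 0.18) and C1S (1.07 ± 0.15), proteases of the classical pathway, and the protective CD55 (1.89 ± 0.19) rose less. Of 9 tested antiproteases, antimicrobials, mucins and trefoil factors, 5 rose (median 1.73). SLPI, the leukocyte protease inhibitor, was at 114, 94.4, 129 and 232 TPM against 18.2, 14.1 and 45.2 TPM (2.54 ± 0.46), and S100A8, a subunit of calprotectin, was listed at 0 in NS and at 2.30, 2.23, 2.47 and 5.74 TPM. In SLPI, S100A8 and PI3, as in CLEC4E, the number 4 library was the highest of the cotreated ones.

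Interferon-stimulated genes were split. Of 33 tested, 13 rose and 20 were not called (median 0.81). IFIH1, the RNA sensor MDA5, was at 9.35, 8.48, 7.54 and 11.2 TPM against 1.25, 1.42 and 1.74 TPM (2.28 ± 0.29). IFIT3 (1.91 ± 0.23), MX1 (1.64 ± 0.30), OAS3 (1.44 ± 0.26) and PARP9 (1.24 ± 0.18), all antiviral, also rose. ISG15, a ubiquitin-like antiviral modifier, was at 5.71, 3.95, 5.13 and 5.11 TPM against 2.14, 2.77 and 3.01 TPM (0.80 ± 0.28), above NS in all libraries but under the minimum for a call, and IFIT1 (0.68 ± 0.30) and IFIT2 (0.85 ± 0.23) were likewise not called. Of the 5 guanylate-binding proteins, GTPases against intracellular microbes, 4 rose (median 1.87), led by GBP1 at 19.0, 17.9, 15.8 and 23.8 TPM against 0.648, 0.462 and 0.791 TPM (4.11 ± 0.32).

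The machinery that loads peptides on MHC class I rose broadly, in 11 of 15 genes (median 1.37). TAP1, a subunit of the peptide transporter, was at 105, 104, 112 and 107 TPM against 12.7, 12.8 and 13.2 TPM (3.01 ± 0.13), and PSMB9, a subunit of the immunoproteasome, at 73.7, 63.1, 58.3 and 62.4 TPM against 11.5, 8.41 and 7.57 TPM (2.76 ± 0.28). HLA-B rose by 3.51 ± 0.39 and shares 38.1% of its 31-base words with other genes. Among 17 tested IRF, JAK-STAT and SOCS genes, 7 rose (median 0.89), with STAT5A (3.23 ± 0.20), IRF1 (1.69 ± 0.15), IL6R (1.63 ± 0.25), IRF7 (1.49 ± 0.24) and JAK2 (1.37 ± 0.24) among them. SOCS3, an inhibitor of cytokine signaling, was not called (0.57 ± 0.15).

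Targets of GR rose in 22 of 24 cases (median 2.06). This list, like the others, was chosen with earlier results of these data known, so its count is a description. TSC22D3, the glucocorticoid-induced leucine zipper GILZ, was at 176, 178, 168 and 190.1 TPM with cotreatment and at 12.2, 12.7 and 9.38 TPM in NS (3.92 ± 0.13, adjusted p = 2.1e-34). FKBP5, a cochaperone that feeds back on GR, was at 105, 116, 116 and 115 TPM against 8.47, 8.30 and 8.68 TPM (3.66 ± 0.10, adjusted p = 2.7e-38). In both, libraries of a group lay close together and groups were far apart. ANGPTL4, an inhibitor of lipoprotein lipase (3.60 ± 0.19), TFCP2L1, a transcription factor (3.46 ± 0.26), RGS2, which quenches Gq signaling (3.29 ± 0.21), and CIDEC, a lipid droplet protein (3.02 ± 0.40), followed. DUSP1, the phosphatase that inactivates p38 and JNK, was at 221, 213, 247 and 239 TPM against 30.3, 31.4 and 39.2 TPM (2.76 ± 0.13). KLF15 (-0.30 ± 0.35) and CRISPLD2 (0.74 ± 0.14) were the members not called. The receptor gene NR3C1 was at 23.9, 24.4, 24.9 and 24.0 TPM against 40.0, 40.5 and 35.9 TPM (-0.66 ± 0.23, adjusted p = 0.023), which is under the minimum change.

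The metallothioneins, which bind zinc and copper, rose in all 6 tested cases (median 2.08). MT2A had the highest level of them, at 2319, 2773, 3167 and 2299 TPM against 272, 315 and 499 TPM (2.90 ± 0.32). It gained more TPM than any other gene called, and its NS library 4 was the highest of NS without reaching the cotreated ones. MT1X (2.51 ± 0.50), MT1M (1.98 ± 0.27) and MT1G (1.91 ± 0.43) rose too, and MT1M shares 44.4% of its 31-base words with other genes. HSD11B1, the enzyme that regenerates active cortisol from cortisone, was at 10.7, 10.6, 12.7 and 21.3 TPM against 0, 0 and 0.0559 TPM (4.73 ± 0.36), with cotreated library 4 the highest. Of 17 tested clock genes 5 rose (median 0.30), PER1 by 3.05 ± 0.17, CIART by 1.81 ± 0.20 and PER2 by 1.26 ± 0.24.

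Subunits of the epithelial sodium channel ENaC rose. SCNN1G was at 7.68, 8.92, 7.29 and 6.72 TPM against 0.146, 0.0600 and 0.110 TPM (3.75 ± 0.11), and SCNN1B rose by 2.25 ± 0.18. In the list of ion and fluid transport 3 of 12 tested genes rose (median 0.76). Among transcription factors, FOS (2.75 ± 0.49), KLF4 (2.40 ± 0.16), FOSL2 (1.88 ± 0.21), CEBPD (1.88 ± 0.18) and KLF6 (1.69 ± 0.21) rose, and HES1, a Notch target, fell by 1.77 on the log2 scale. In the list of EGR, NR4A, IER and MYC genes, 1 of 11 fell and the rest were not called, with EGR1 at -0.29 ± 0.21 and MYC at 0.32 ± 0.10. Of 10 MAPK phosphatases, DUSP1 and DUSP6 (1.15 ± 0.23) rose and DUSP8 (-1.31 ± 0.26) fell.

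**Figure D3:**
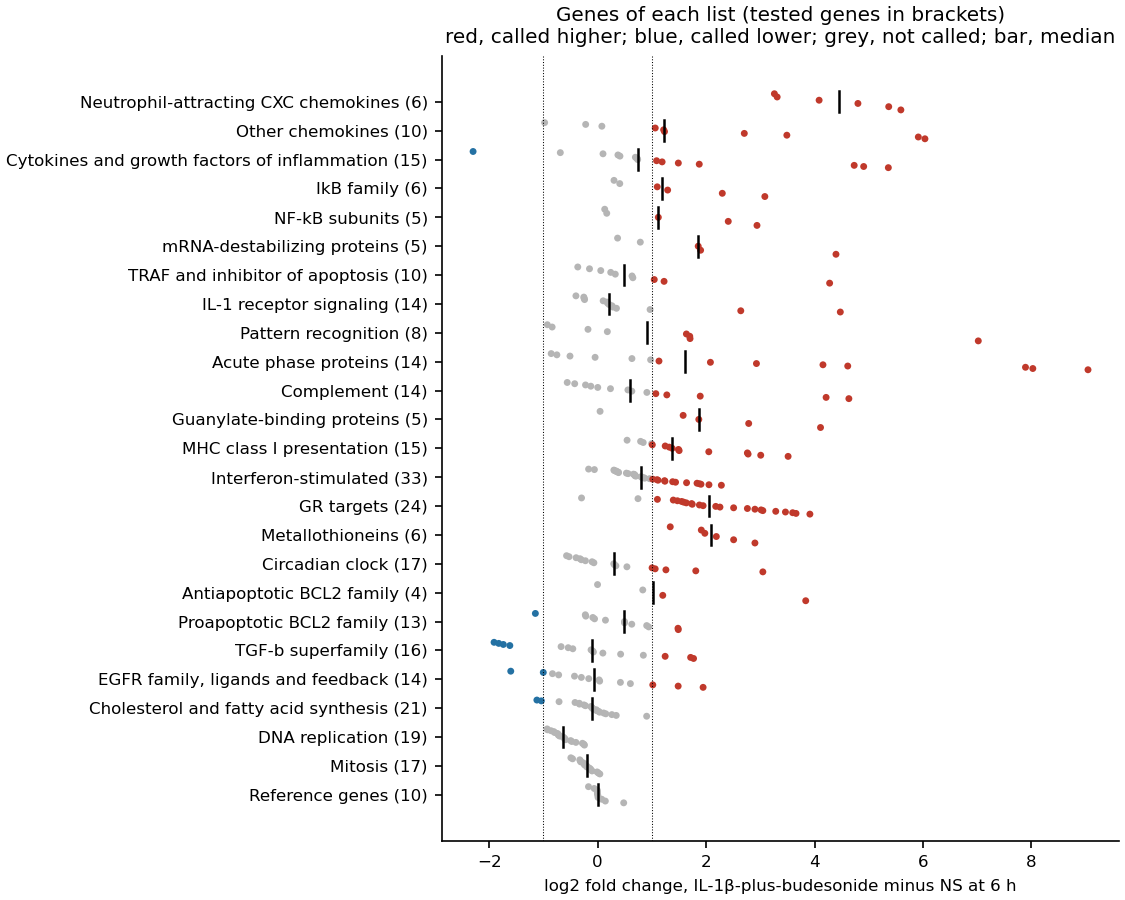
Log2 fold change of IL-1β-plus-budesonide minus NS at 6 h (horizontal axis) for the tested genes of 25 lists, each point 1 gene, red where called higher, blue where called lower and grey where not called, with a bar at each median. The CXC chemokines, with a median of 4.44, lie farthest right, all 10 reference genes are grey around 0, and the 19 DNA replication genes lie left of 0 without a call.

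Genes of cell survival and of cell death were both among those that rose. Of 4 tested antiapoptotic BCL2 genes, BCL2A1 and MCL1 rose (median 1.02). BCL2A1, a target of NF-κB, was at 25.2, 26.2, 32.0 and 27.1 TPM against 1.27, 2.09 and 1.15 TPM (3.84 ± 0.21), and MCL1 at 109.7, 114, 112 and 117 TPM against 48.0, 49.9 and 49.1 TPM (1.20 ± 0.10). Of 13 tested proapoptotic relatives, BIK (1.49 ± 0.22) and BID (1.48 ± 0.12) rose and 1 fell (median 0.49). Among 12 tested caspase-linked genes, CFLAR, the inhibitor of caspase 8 known as c-FLIP, was at 165, 166, 149.8 and 172 TPM against 42.9, 44.4 and 41.6 TPM (1.91 ± 0.12), and the inflammatory CASP1 rose by 1.83 ± 0.38 from a lower level. In all, 3 of the 12 rose (median 0.36).

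Of 20 genes taken from those that the study itself named, 19 rose and BIRC2 was not called (median 1.87). The 20 are not all that the study named: KCNMA1, a potassium channel, was at 7.29, 9.80, 9.19 and 6.02 TPM against 5.30, 8.07 and 4.48 TPM (0.43 ± 0.32, adjusted p = 0.35), with overlap. The study chose these genes on the same samples, so their direction is not independent evidence. They include BIRC3, NFKBIA and TNFAIP3 above, and CD38, an enzyme that consumes NAD, at 65.6, 67.2, 83.2 and 69.8 TPM against 11.7, 8.81 and 8.38 TPM (2.84 ± 0.20). B4GALT1, a galactosyltransferase (1.97 ± 0.13), the receptor gene TGFBR1 (1.72 ± 0.28), SGK1, a kinase that regulates ion channels (1.64 ± 0.19), EGFR (1.49 ± 0.19), the survival kinase PIM3 (1.41 ± 0.08) and DDIT4, an inhibitor of mTORC1 (1.55 ± 0.10), were further members.

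The largest gains in transcript amount were, after MT2A, those of TNFAIP2, SOD2, NDRG1, CXCL5, SERPINA3, SAT1, NNMT, TNIP1 and SAA1. TNFAIP2, a gene induced by TNF, was at 1591, 1785, 1555 and 1578 TPM against 133, 149 and 109.5 TPM (3.64 ± 0.14). NDRG1, a stress-responsive gene, was at 1650.0, 1607, 1405 and 2038 TPM against 589.6, 468 and 749.9 TPM (1.49 ± 0.32). SAT1, which acetylates polyamines, rose by 1.27 ± 0.17 and NNMT, which methylates nicotinamide, by 1.93 ± 0.13. All of these genes were abundant in NS except SERPINA3 and SAA1, and none overlapped between groups.

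The level with cotreatment was placed against that with each agent alone. These comparisons share the NS or the cotreated libraries with the main one, so their values are set side by side. Against IL-1β alone, 391 genes (2.93%) were higher and 331 (2.48%) lower with cotreatment, and against budesonide alone 401 (3.01%) were higher and 263 (1.97%) lower. The log2 fold changes against NS in the CXC chemokines had a median of 6.82 with IL-1β, -0.73 with budesonide and 4.44 with both, and all 6 genes were lower with cotreatment than with IL-1β alone. CXCL8 was at 1012 to 1610.0 TPM with IL-1β, at 0.584 to 1.95 TPM with budesonide and at 90.9 to 120.4 TPM with both (-3.48 ± 0.22 against IL-1β). Of the 33 interferon-stimulated genes, whose median was 3.17 with IL-1β and -0.03 with budesonide, 29 were lower with cotreatment than with IL-1β. ISG15 stood at 51.3 to 103 TPM with IL-1β and at 3.95 to 5.71 TPM with both.

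Feedback genes were set against IL-1β alone in the same way. TNFAIP3 was at 74.7 to 100.4 TPM with IL-1β and at 65.2 to 77.2 TPM with both (-0.31 ± 0.23, adjusted p = 0.35), and NFKBIA at 258 to 304 TPM and 281 to 308 TPM (0.07 ± 0.11, adjusted p = 0.68), neither past the test. BIRC3 was at 169 to 183 TPM with IL-1β, at 43.7 to 57.2 TPM with budesonide and at 198 to 244 TPM with both, above budesonide (2.17 ± 0.17) and not called against IL-1β (0.34 ± 0.17, adjusted p = 0.12). BIRC2 was at 53.8 to 66.9 TPM with IL-1β and at 23.2 to 36.4 TPM with budesonide, so the cotreated libraries overlapped those of budesonide and lay below all libraries of IL-1β. PTGS2 was at 388 to 673 TPM with IL-1β and at 5.61 to 7.68 TPM with budesonide, against 23.0 to 38.7 TPM with both.

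GR targets stood near the level of budesonide, with medians against NS of -0.06 with IL-1β, 2.15 with budesonide and 2.06 with both. Of the 24, 20 were higher with cotreatment than with IL-1β, and CDKN1C and CIDEC were lower than with budesonide, with differences of -1.86 and -1.92 on the log2 scale. TSC22D3 was at 227 to 262 TPM with budesonide and at 168 to 190.1 TPM with both (-0.44 ± 0.12, adjusted p = 0.0043), under the minimum for a call though the ranges did not overlap. FKBP5 likewise stood at 173 to 201 TPM with budesonide and at 105 to 116 TPM with both (-0.72 ± 0.10). ZFP36 was at 12.5 to 17.8 TPM with IL-1β, within the range of NS, and at 59.3 to 86.6 TPM with budesonide.

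A further set stood above both single treatments. IRAK3, TCHH, CTSE and SLAMF8 were picked for the highest differences, relative to their SE, from both agents. Their height is therefore a description, and the number of genes called against both was not counted. IRAK3 was at 0.723 to 1.51 TPM with IL-1β and at 1.85 to 2.16 TPM with budesonide, and at 11.1 to 12.5 TPM with both (3.01 ± 0.17 against IL-1β and 2.31 ± 0.17 against budesonide). TCHH, a structural protein of hair follicles, was at 0.606 to 0.797 TPM with IL-1β, 0.0382 to 0.0793 TPM with budesonide and 1.91 to 3.41 TPM with both. CTSE, the aspartic protease cathepsin E, was at no more than 0.130 TPM with either agent and at 1.11, 1.61, 1.70 and 3.34 TPM with both (1.99 ± 0.13 and 2.18 ± 0.13). SLAMF8, a receptor of the SLAM family, was at no more than 0.261 TPM with either agent and at 1.23, 1.75, 1.42 and 1.90 TPM with both. In CTSE and SLAMF8 all levels were low, and at 6 h the 1 TPM of the filter was reached with both agents but not with either alone. The single agents gave log2 fold changes against NS of 0.15 and -0.03 for CTSE and of 0.20 and 0.06 for SLAMF8.

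Among acute phase genes SAA1 was called higher than with either agent, at 28.2 to 39.9 TPM with IL-1β, 1.35 to 3.40 TPM with budesonide and 258 to 370.1 TPM with both (3.09 ± 0.29 and 6.94 ± 0.29), as was SERPINA3, at 131 to 206 TPM, 4.35 to 9.58 TPM and 492 to 697 TPM. TLR2 was at 0.168 to 0.400 TPM with IL-1β and 0.261 to 0.442 TPM with budesonide, both within the range of NS, and at 1.88 to 2.68 TPM with both (1.82 ± 0.18 and 1.65 ± 0.18). Among the other called list members CD38, B4GALT1, SCNN1G, C3 and HSD11B1 were also called higher than with each agent alone. In the acute phase list, 5 of 14 genes were higher than with IL-1β and 7 than with budesonide. MT2A was higher than with IL-1β (1.77 ± 0.29) and stood 0.78 ± 0.29 above budesonide, under the minimum for a call. All 6 metallothioneins tested were higher than with IL-1β, and MT1A (2.40 ± 0.27 and 1.61 ± 0.27) and MT1M (2.42 ± 0.25 and 2.30 ± 0.25) were higher than with either agent.

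**Figure D4:**
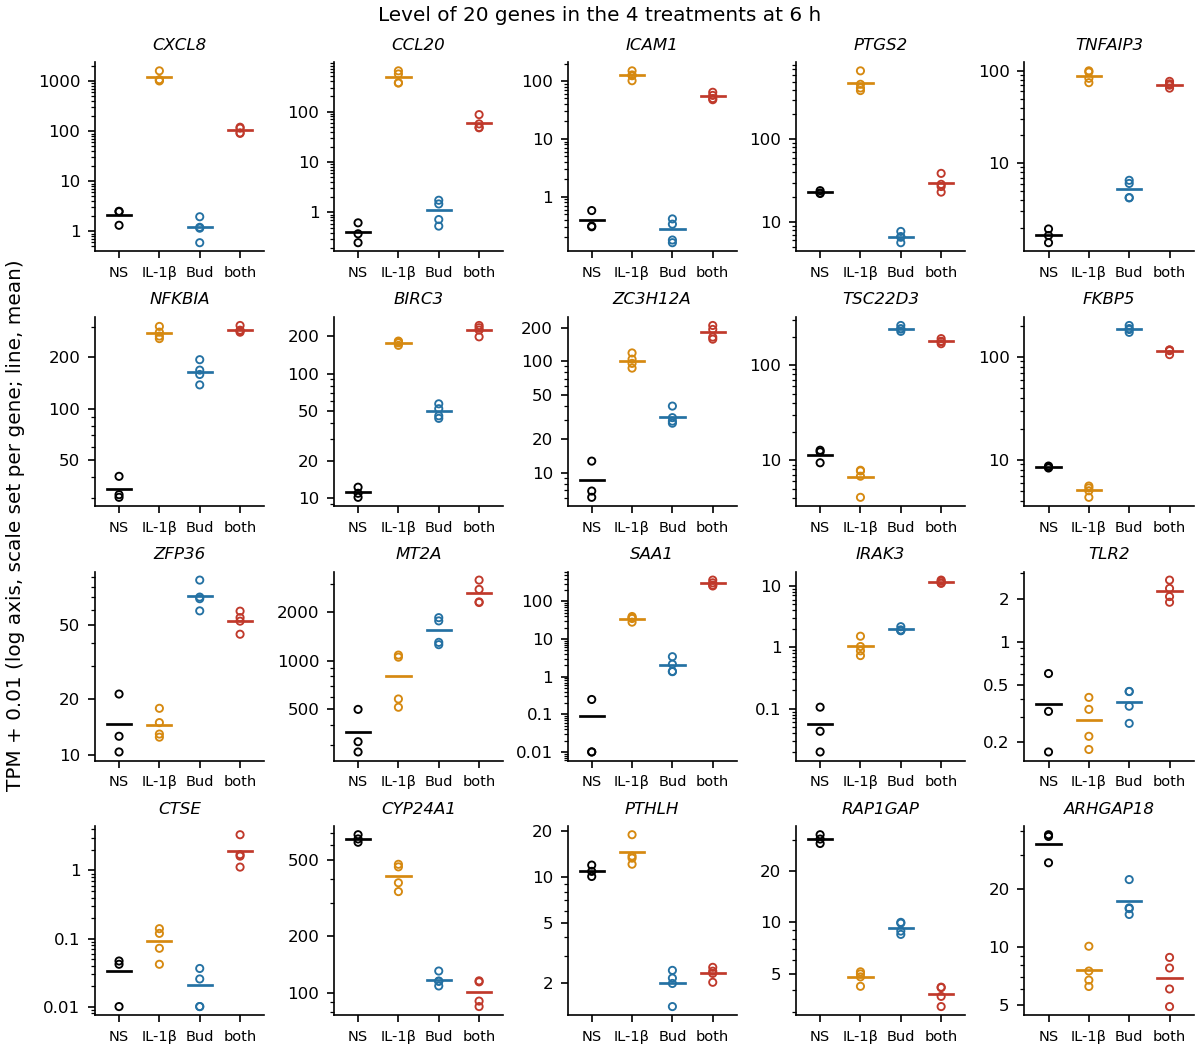
TPM plus 0.01 (log axis, scaled for each gene) of 20 genes at 6 h in NS (3 libraries) and in IL-1β, budesonide (Bud) and cotreated (both) libraries (4 each), each circle 1 library with a line at the mean. With both agents CXCL8 and PTGS2 lie below IL-1β, and TSC22D3 and FKBP5 lie below budesonide. IRAK3, TLR2, CTSE and SAA1 lie above either agent alone.

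Among the genes that fell, CYP24A1, which inactivates vitamin D, lost the most TPM. CYP24A1 was at 91.2, 116, 115 and 85.3 TPM with cotreatment and at 649, 683 and 623 TPM in NS (-2.68 ± 0.14, adjusted p = 1.8e-24), with every cotreated library far below NS. Its level with budesonide alone was 109.5 to 131 TPM and with IL-1β alone 343 to 477 TPM. RAP1GAP, which switches off the GTPase Rap1, was at 4.17, 4.14, 3.21 and 3.68 TPM against 32.3, 28.7 and 30.5 TPM (-2.85 ± 0.13), and stood at 4.22 to 5.13 TPM with IL-1β. TM4SF20, a tetraspan membrane protein, had the lowest fold change (-3.12 ± 0.61) with a wide spread, at 4.28, 3.61, 6.82 and 13.6 TPM against 44.6, 38.6 and 112 TPM, in which both number 4 libraries were the highest of their groups.

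The other low genes spanned several functions. Growth factor and hormone genes that fell were PTHLH, parathyroid hormone-related protein, at 2.01, 2.38, 2.30 and 2.53 TPM against 10.9, 12.0 and 10.1 TPM (-2.03 ± 0.20), and the receptor FGFR3 (-1.95 ± 0.26). Regulators of small GTPases and signaling that fell were VAV3, a guanine nucleotide exchange factor (-2.26 ± 0.24), ARHGAP18, a GTPase-activating protein (-2.26 ± 0.20), RASSF10 (-2.38 ± 0.25), the phosphodiesterase PDE7B (-2.24 ± 0.16) and SYTL2, which tethers secretory vesicles (-1.93 ± 0.25). SLC40A1, the iron exporter ferroportin, was at 3.99, 4.79, 3.68 and 6.24 TPM against 26.8, 24.1 and 33.1 TPM (-2.48 ± 0.40). PCED1B was the most abundant of these, at 13.6, 13.5, 13.1 and 14.7 TPM against 59.0, 56.4 and 56.2 TPM (-2.02 ± 0.11).

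Other members of the 20 lowest were KRT80 (-2.39 ± 0.31), a keratin, ST8SIA4 (-2.35 ± 0.20), a polysialyltransferase, NR0B1 (-2.26 ± 0.16), an orphan nuclear receptor, BCAS1 (-2.13 ± 0.14), PRRT1B (-2.51 ± 0.20) and PLCXD3 (-2.41 ± 0.20). Their log2 fold changes with the single agents differed: PLCXD3 was at -2.61 with IL-1β and -0.47 with budesonide, VAV3 at -2.70 and -0.63, and FGFR3 at -1.96 and -0.36. PTHLH was at 0.37 and -2.22, RASSF10 at 0.58 and -2.91 and TNFSF15 at -0.16 and -2.38. BCAS1 (-1.75 and -1.57), KRT80 (-1.57 and -1.71) and SLC40A1 (-1.52 and -1.30) were lower with either agent.

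By loss of TPM the next after CYP24A1 were CD24, PRSS23, HMOX1, AMIGO2, CCND3, SREBF1, PFKFB3, TUBA4A and LBH. HMOX1, heme oxygenase 1, was at 66.6, 72.3, 66.2 and 56.4 TPM against 191, 196 and 191 TPM (-1.56 ± 0.15), PRSS23, a serine protease, at 89.8, 87.2, 82.8 and 76.1 TPM against 249.5, 232 and 236 TPM (-1.51 ± 0.12), and AMIGO2, an adhesion protein, at 87.5, 99.5, 116 and 97.1 TPM against 208, 218 and 210.0 TPM (-1.08 ± 0.10). PFKFB3, a driver of glycolysis, fell by 1.18 on the log2 scale. Without NS library 4 the changes of CD24, a sialoglycoprotein of the cell surface (-0.91), the cyclin CCND3 (-0.92), LBH (-0.89) and the tubulin TUBA4A (-0.88) were no longer called. Without NS library 1 that of SREBF1, a regulator of lipid synthesis, was not (-0.97), nor without cotreated library 2 that of CCND3 (-0.95). With the replicate number as a block LBH was at -0.95.

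Growth pathways moved both ways. Of 16 TGF-β family genes, TGFB2 (-1.82 ± 0.22), BMP4 (-1.62 ± 0.23), GDF15 (-1.91 ± 0.30) and the activin antagonist FST (-1.74 ± 0.40) fell, and TGFBR1, FSTL3 (1.77 ± 0.15) and BMP6 (1.25 ± 0.26) rose. In the EGFR family list, EGFR and its inhibitor ERRFI1 (1.95 ± 0.13) were among 3 of 14 that rose, and 2 fell. In the insulin list IGFBP1 (2.31 ± 0.37) and IRS2 (1.33 ± 0.14) rose and IGFBP3 (-1.37 ± 0.27) fell. Of 21 genes of cholesterol and fatty acid synthesis 2 fell (median -0.10), and in the unfolded protein response 12 of 12 were not called by limma, with a median of 0.39. None of 19 DNA replication genes (median -0.64) or 17 mitosis genes (median -0.20) was called. E2F1, which drives S phase, was at 8.96, 9.61, 7.71 and 7.72 TPM against 16.8, 14.5 and 16.1 TPM (-0.86 ± 0.13), without overlap and under the minimum, and the proliferation marker MKI67 was at -0.25 ± 0.15.

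Lists of stress and metabolism were examined next. Of 13 NRF2 targets HMOX1 fell and the rest were not called (median -0.42), and of 11 genes of the integrated stress response GDF15 fell (median 0.07). GDF15, a stress cytokine, was at 13.5, 10.9, 12.8 and 5.15 TPM against 44.5, 42.1 and 31.4 TPM (-1.91 ± 0.30), with log2 fold changes of 0.88 with IL-1β and -2.86 with budesonide. Among 15 hypoxia-linked genes NDRG1 and the collagen cross-linker LOX (1.42 ± 0.17) rose, and PFKFB3 and the glucose transporter SLC2A3 (-1.58 ± 0.19) fell. SLC2A3 shares 27.8% of its 31-base words with other genes. G0S2, an inhibitor of the lipase ATGL, was at 24.6, 25.5, 25.5 and 24.4 TPM against 1.50, 1.76 and 2.26 TPM (3.46 ± 0.23), one of 3 in 9 lipid droplet genes that rose, with ANGPTL4 and CIDEC (median 0.73). Of 8 genes of superoxide handling 3 rose, SOD2, C15orf48 and the secreted peroxidase GPX3, by 1.70 ± 0.26 (median 0.05).

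Structural genes moved both ways. Of 11 keratins 3 fell, among them KRT80, at 7.62, 6.67, 4.42 and 11.3 TPM against 36.8, 34.7 and 48.0 TPM. KRT6A, with the highest change of the list (2.30 ± 1.00, adjusted p = 0.075), overlapped between groups, was called with the replicate number as a block (2.40), and shares 44.1% of its 31-base words with other genes. Of 16 junction genes 2 rose, among them the cadherin CDH16 (3.25 ± 0.20), and 2 fell, one of them the pore-forming claudin CLDN2 (-1.54 ± 0.37). Of 17 matrix genes 4 rose, among them the laminin chain LAMB3 (2.11 ± 0.35) and TNC, which was at 4.63, 3.47, 11.5 and 3.42 TPM against 0.491, 0.552 and 0.310 TPM (2.56 ± 0.33), with cotreated library 3 apart from the others.

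The response at 6 h was then set against the cotreatment response at 2 h and at 24 h, each with its own NS libraries, as the difference of the log2 fold changes. From 2 h to 6 h the response of 268 genes (2.01%) became higher and that of 215 (1.61%) lower. From 6 h to 24 h it became higher in 219 (1.64%) and lower in 524 (3.93%). Both differences use the libraries at 6 h, so they are not independent.

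Several early genes had a higher response at 2 h than at 6 h. CXCL3 averaged 251 TPM with cotreatment at 2 h and 39.0 TPM at 6 h, a fall of the response by 2.96 on the log2 scale (adjusted p = 3.1e-14). IRF1, the interferon regulator, averaged 293 TPM at 2 h and 29.4 TPM at 6 h, a difference in response of -3.19 ± 0.20. CSF2, the granulocyte and macrophage growth factor, averaged 9.98 TPM and 0.149 TPM and was listed at 0 in NS at both times. The responses of NFKBID (-3.12 ± 0.38) and of the histone demethylase KDM6B (-2.90 ± 0.50) were also lower at 6 h, and the pentraxin PTX3, listed at 0 in NS at 6 h, averaged 10.9 TPM at 2 h and 0.691 TPM at 6 h. The CXC chemokines had a median log2 fold change of 6.68 at 2 h, 4.44 at 6 h and 3.24 at 24 h. From 2 h to 6 h the response became lower in 4 of them and higher in CXCL5 (1.46 ± 0.23) and CXCL6 (1.43 ± 0.33). Of the IκB family, 5 of 6 genes were lower at 6 h than at 2 h. TNFAIP3 did not pass the test between 2 h and 6 h (-0.45 ± 0.34, adjusted p = 0.50) or between 6 h and 24 h (-0.05 ± 0.34, adjusted p = 0.94).

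Later genes rose between 2 h and 6 h. SAA1 averaged 21.0 TPM with cotreatment at 2 h, 303 TPM at 6 h and 349.6 TPM at 24 h (4.21 ± 0.43 from 2 h to 6 h), and LCN2 17.5, 181 and 256 TPM (3.61 ± 0.39). SAA2 (4.21 ± 0.43), HSD11B1 (4.18 ± 0.49) and GBP1 (2.94 ± 0.44) rose over the same interval, and 13 of 33 interferon-stimulated genes and 7 of 14 acute phase genes did so. CDC42EP5 also passed the test (3.10), though leaving out 1 library at a time lost it in 7 fits. Among GR targets 9 of 24 were higher at 6 h than at 2 h and 1 was lower, and the log2 fold change had a median of 1.55 at 2 h, of 2.06 at 6 h and of 2.52 at 24 h.

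From 6 h to 24 h the rising genes included epithelial and secreted proteins. PDZK1IP1, a membrane protein of epithelia, averaged 26.7 TPM with cotreatment at 6 h and 126 TPM at 24 h (2.96 ± 0.25), C3 251 and 737 TPM (1.45 ± 0.46), and SFTPD, the collectin surfactant protein D, 1.85 and 16.4 TPM (2.65 ± 0.59). AOX1, aldehyde oxidase, rose over that interval by 3.23 ± 0.67. TNC, the matrix protein tenascin C, went the other way, from 5.76 to 0.321 TPM (-3.28 ± 0.45), as did the chemokine CCL15 (-3.27 ± 0.36), RHBDL3 (-3.14 ± 0.32), NT5DC4 (-3.25), FMNL3 (-2.95 ± 0.28) and HLA-DMB (-3.07 ± 0.40). HLA-DMB at 6 h was at -0.90 ± 0.29, and -1.08 with the replicate block, where it was called. The cell cycle lists, without a call at 6 h, held 17 of 19 DNA replication and 17 of 17 mitosis genes whose response became lower by 24 h, with medians at 24 h of -2.04 and -2.46. MKI67 averaged 24.1 TPM with cotreatment at 6 h and 3.60 TPM at 24 h, against 28.4 and 25.8 TPM in NS (-2.45 ± 0.21).

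**Figure D5:**
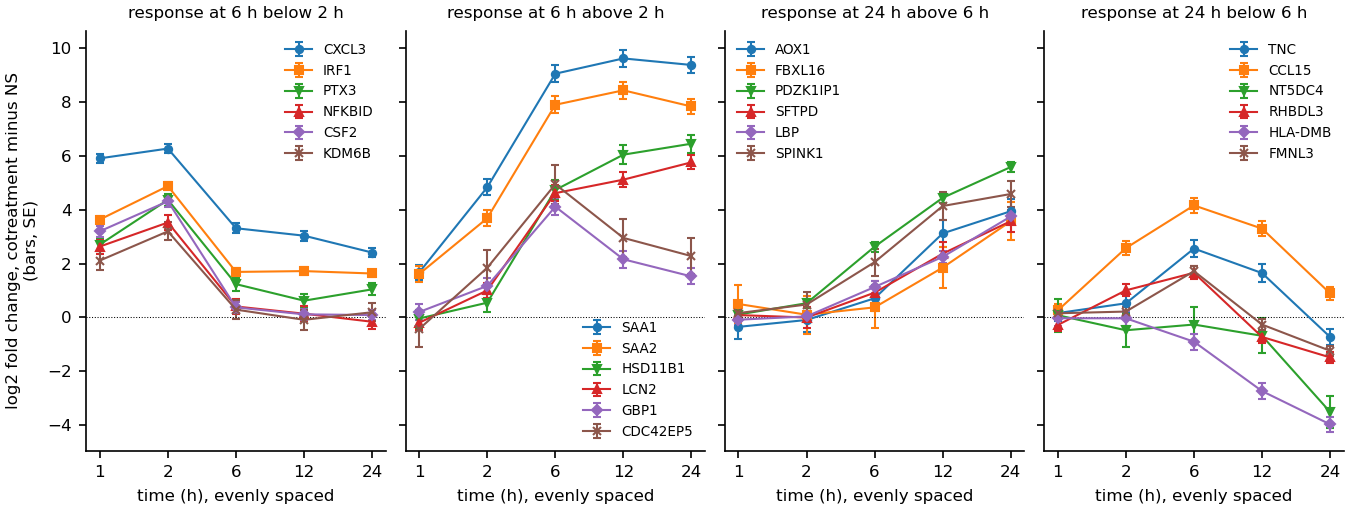
Log2 fold change of IL-1β-plus-budesonide minus NS (vertical axis, bars SE) at 1, 2, 6, 12 and 24 h (horizontal axis, evenly spaced) in 4 panels of 6 genes, whose response at 6 h was below or above that at 2 h, and whose response at 24 h was above or below that at 6 h. CXCL3 and IRF1 fall from their value at 2 h, SAA1 and SAA2 rise to 9.04 and 7.89 at 6 h, and HLA-DMB and NT5DC4 reach their lowest value at 24 h.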

How the data were processed

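Poly(A) RNA of A549 cells was sequenced as stranded libraries. Per the labels and the study's methods, reads were quantified with kallisto and normalized with sleuth against a GRCh38 (hg38) transcriptome, versions not given in the sources used here. The deposited values are TPM summed per gene and normalized between libraries by the authors, treated here as a signal that is never negative and is not whole reads. A second deposited table holds the authors' own fold changes and q-values and was not used. A library (NS at 6 h, number 3; 1 in all) has no label and was not analysed here. Groups follow the labels.

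The filter kept genes that reached 1 TPM in 3 or more libraries (13327 of 19652, 6325 removed), and log2(TPM + 0.5) of all 78 libraries was fitted with limma 3.58.1 (R 4.3.3, trend) with 20 group means, leaving 58 residual degrees of freedom. Calls needed a Benjamini-Hochberg adjusted p of at most 0.05 over all genes tested and an absolute log2 fold change of at least 1. Depth per library is not known from TPM, so no counting interval is given. No 2 libraries held identical values (0 pairs).

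The named genes were the 20 highest and 20 lowest log2 fold changes among calls without overlap, the 10 largest gains and 10 largest losses of TPM, up to 6 genes each way for the change in response between times, genes past a difference against both single treatments and members of gene lists. ITGAM, KRT6A, KCNMA1 and the values just under the minimum were named after their values were seen. The comparison, its members and the lists were chosen with earlier results of these data known. Same-numbered libraries correlated in their deviations from the group means (0.110, 0.198 and 0.377 for numbers 1, 2 and 4). Each was over the 0.1 that was set, so the numbers were taken to pair the samples in the replicate block, an alternative fit. The main fit held no block. Cotreated library 1 correlated as well with NS library 2 (0.117), and cotreated 2 with NS 1 at 0.103. Shared sequence is the percent of a gene's 31-base words found in transcripts of other genes. Promoters came from RefSeq, GRCh38.p14, matched by symbol. Alternatives were other pseudocounts, scalings, filters, the replicate block, fewer groups and leaving out each library.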

Additional observations from a re-analysis of the deposited data

Results flagged for a closer look

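In 8 of 81 genes tested for it, 1 of the 4 cotreated libraries at 6 h lay apart from the rest by Dixon's criterion, which chance meets in about 1 in 20 groups. Library 4 stood apart for CLEC4E (129 TPM), PI3 (148 TPM), LBH (70.1 TPM) and TUBA4A (87.4 TPM), library 2 for TNFAIP2 (1785 TPM) and CSF2 (0.194 TPM), library 3 for TNC (11.5 TPM) and library 1 for NFKBID (6.13 TPM).

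The cotreatment response differed between 2 h and 6 h, by limma's test of the difference of log2 fold changes, most upward in SAA1 (4.21), SAA2 (4.21), HSD11B1 (4.18), LCN2 (3.61), CDC42EP5 (3.10) and GBP1 (2.94). It differed most downward in CSF2 (-3.94), IRF1 (-3.19), PTX3 (-3.13), NFKBID (-3.12), CXCL3 (-2.96) and KDM6B (-2.90). CSF2 was listed at 0 in NS at both times and PTX3 at 6 h, so their differences rest on the pseudocount and give no fold. CDC42EP5 was lost with a pseudocount of 0.1 (4.31, adjusted p = 0.059).

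Between 6 h and 24 h the same test gave the highest differences in AOX1 (3.23), FBXL16 (3.20), PDZK1IP1 (2.96), SFTPD (2.65), LBP (2.62) and SPINK1 (2.53), and the lowest in TNC (-3.28), CCL15 (-3.27), NT5DC4 (-3.25), RHBDL3 (-3.14), HLA-DMB (-3.07) and FMNL3 (-2.95). FBXL16 was lost without NS library 1 at 6 h (adjusted p = 0.080) and without NS library 1 at 24 h (adjusted p = 0.067), and SPINK1 with a pseudocount of 0.1 (2.03, adjusted p = 0.24).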

How the results depend on the processing

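Directions were followed for the list members and the named genes. None of these that was called in the main or the alternative fit reversed its direction. With genes kept only at a mean of at least 5 TPM, fewer genes were tested and 366 rose and 159 fell with cotreatment against NS, 150 and 116 responses became higher and lower from 2 h to 6 h, 109 and 343 from 6 h to 24 h, 222 and 197 genes were higher and lower than with IL-1β alone and 228 and 114 than with budesonide alone. With an absolute log2 fold change of at least 2, 182 rose and 18 fell. With a pseudocount of 1, 193 genes fell against NS and 170 were lower than with budesonide, and with 0.1, 488 and 434, since a pseudocount sets the change of low genes. The fit with the replicate number as a block called 642 higher and 316 lower, of which 627 and 283 were shared with the fit without the block, and moved none of the 10 total counts by over 1.5 times. Of the list counts it moved 2, keratins that rose and antimicrobial and mucin genes that fell, each to 1. It added calls for B2M (1.01), BOK (1.01), DUSP16 (1.05), HLA-DMB (-1.08), KRT6A (2.40) and MUC5B (-1.04) and lost IFI35 (0.98), LBH (-0.95) and NFIL3 (0.92) among the genes followed. Leaving out each library in turn gave 621 to 661 higher and 304 to 320 lower. Other scalings gave 670 and 278 (median of ratios) and 639 and 304 (quantile), and moved the median of all genes to no lower than -0.05. The cause of these shifts was not tested. TPM gives no depth, so levels under 1 TPM are the least certain.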
